A study of Mus musculus with 6 samples.

Results

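The genes described here are 8 genes of protein quality control: *Vcp*, *Dnaja1*, *Bag1*, *Creb3*, *Erp44*, *Sec61b*, *Txn1* and *Calu*. They were picked by Ensembl identifier for their roles in protein folding, the endoplasmic reticulum (ER) and the thioredoxin system, out of 55359 rows of a gene count table. A row was read as the gene it names only at the start of chromosomes 4 and 6, where the positions in the table coincide with those of the mouse genome GRCm38. There, 561 rows could be placed by symbol, and 67.4% of them started or ended within 10 bases of the RefSeq gene, with a median offset of 1 base. Over the 22679 other rows that could be placed, the share was 0.410% and the median offset 141591 bases. The restriction left 1144 rows, among them all 8 genes.

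The samples were 2 cell lines of lung squamous cell carcinoma (LUSC), UN-SCC679 and UN-SCC680, with 3 messenger RNA libraries each. Both lines come from inbred A/J mice painted with the carcinogen NTCU (N-nitroso-tris-chloroethylurea), each from a tumor of a different mouse. After culture, both were grafted into immunodeficient mice and then into A/J mice, and the working lines came from the A/J model. Neither line was treated. Each line derives from 1 tumor, and the comparison asks how the lines differ. The labels do not say whether replicates were separate cultures, so the p-values measure only the spread between these libraries, which may be technical. The libraries held 3568293 to 4381885 counts, and the share of mitochondrial counts was 18.0% to 18.9%. Of 25 cell type markers, the position rule left 1, the fibroblast marker *Col1a2*; none of the 7 squamous markers could be read, so the squamous label was not checked here. *Col1a2* lay between 26677 and 29001 CPM (counts scaled to a common library size) in UN-SCC679 and between 2194 and 2374 CPM in UN-SCC680, and its part in the results was not tested. In bulk RNA, fewer cells of a type and less RNA per cell cannot be told apart.

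Newly made proteins are folded by chaperones, and those that fail are unfolded, ubiquitinated and degraded. In the cytosol, Hsp70 chaperones work in cycles that J-domain proteins such as DNAJA1 start and nucleotide exchange factors such as BAG1 complete. Secreted and membrane proteins enter the ER through the SEC61 channel, where disulfide-handling and calcium-binding proteins such as ERP44 and calumenin act on them. The ATPase VCP (p97) pulls misfolded proteins out of the ER membrane for the proteasome. Thioredoxin keeps cytosolic cysteines reduced, and CREB3 is a transcription factor held in the ER membrane until it is cut free.

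The sequences upstream of *Vcp* and *Dnaja1* are shown because these genes had the largest differences among the 8. Both are RefSeq sequences of GRCm38.p6, written 5′ to 3′ on the strand of the gene and ending 1 base before a RefSeq transcription start, at chr4:43000508-43000757 on the minus strand for *Vcp* and at chr4:40722218-40722467 on the plus strand for *Dnaja1*. The *Vcp* window lies directly beside its counted row. The counted *Dnaja1* row already starts at base 40722150, so the *Dnaja1* window lies inside that row. Capitals mark matches, on either strand, to the CCAAT box (in 33.8% of windows), to pairs of heat shock units (GAANNTTC or TTCNNGAA), to the unfolded protein response core TGACGTGG, to the cyclic AMP response element TGACGTCA and to the antioxidant response core TGACNNNGC.
Vcp: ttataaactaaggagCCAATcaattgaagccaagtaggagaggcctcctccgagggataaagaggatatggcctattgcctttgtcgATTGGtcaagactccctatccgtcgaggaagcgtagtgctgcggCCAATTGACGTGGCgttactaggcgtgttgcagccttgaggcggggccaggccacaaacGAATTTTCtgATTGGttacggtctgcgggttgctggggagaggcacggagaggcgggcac
Dnaja1: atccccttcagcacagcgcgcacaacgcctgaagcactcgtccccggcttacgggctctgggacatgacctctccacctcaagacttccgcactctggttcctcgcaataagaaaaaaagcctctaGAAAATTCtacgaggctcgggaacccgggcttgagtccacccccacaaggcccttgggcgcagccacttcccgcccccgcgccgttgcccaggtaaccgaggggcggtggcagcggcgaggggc

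The *Vcp* window held 4 CCAAT boxes, at 235 to 231, 163 to 159, 119 to 115 and 50 to 46 bases before the start. At least 4 CCAAT boxes were found in 0.840% of 32851 promoter windows of the same length. It also held TGACGTGG at 114 to 107 bases, a match present in 0.563% of windows, which lies directly beside a CCAAT box and within a TGACNNNGC match (10.2% of windows). A GAANNTTC match lay at 60 to 53 bases (6.69% of windows). In the *Dnaja1* window the capitals mark a GAANNTTC match at 124 to 117 bases. RefSeq gives *Dnaja1* 2 further starts, and the windows before those hold 2 overlapping CCAAT matches instead. Among the other 6 genes, *Calu* held 3 CCAAT boxes (2.79% of windows held at least that many), *Erp44* held 1, *Bag1* and *Sec61b* each held 1 TGACNNNGC match, and *Creb3* and *Txn1* held none of these letters. The full ER stress element, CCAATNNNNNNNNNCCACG (0.113% of windows), TTCNNGAA (7.17%) and TGACGTCA (1.55%) were in none of the 8. Outside the 8 genes, *Dnajb5* also held 4 CCAAT boxes, before some of its RefSeq starts but not all, and *Ube2j1* held TGACGTGG. These matches were thus not particular to *Vcp*. Over the whole table both genes were higher in UN-SCC680 (log2 differences 0.42 and 0.18). In a fit to the position-rule rows alone the values were 0.18 for *Dnajb5* and -0.056 for *Ube2j1*. A relation between matches and direction was not tested. A match is a description of the letters and not evidence of a bound site.

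Of the 8 genes, *Vcp* and *Dnaja1* were lower in UN-SCC680 than in UN-SCC679, *Creb3* was higher, and the other 5 did not pass the threshold, an adjusted p under 5e-05 (edgeR quasi-likelihood, with p-values adjusted by Benjamini-Hochberg over 8987 tested rows, all 8 genes included). The log2 differences, always UN-SCC680 minus UN-SCC679, ran from -0.59 to 0.25 with a median of -0.11. In size all 8 were below 1 on the log2 scale. Over all tested rows 33.4% passed, 16.7% as higher and 16.7% as lower in UN-SCC680, and the median difference was -0.0028. Among the 343 tested rows that passed the position rule, 56.9% were called, 41.1% as higher and 15.7% as lower, with a median of 0.23. The count of 3 of 8 is therefore near the background over all rows. The 8 genes together took 1.45% to 1.47% of the counts in UN-SCC679 and 1.24% to 1.28% in UN-SCC680. All rows that passed the position rule took 14.2% to 14.3% in UN-SCC679 and 12.4% in UN-SCC680. That total includes *Col1a2*, with 99141, 125364 and 103704 counts in the UN-SCC679 libraries and 9976, 9655 and 9290 in those of UN-SCC680. The fall of *Col1a2* as a share of the counts was larger than that of the total. The lower total therefore does not describe most of these rows, whose median log2 difference was 0.23. When only the rows that passed the position rule were scaled, fitted and adjusted (341 tested), their median was 0.0018, and 5 of the 8 genes were called, all lower (*Vcp*, *Dnaja1*, *Erp44*, *Txn1* and *Calu*). In that fit the log2 differences of all 8 genes were lower than over the whole table, by similar amounts.

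**Figure D1:**
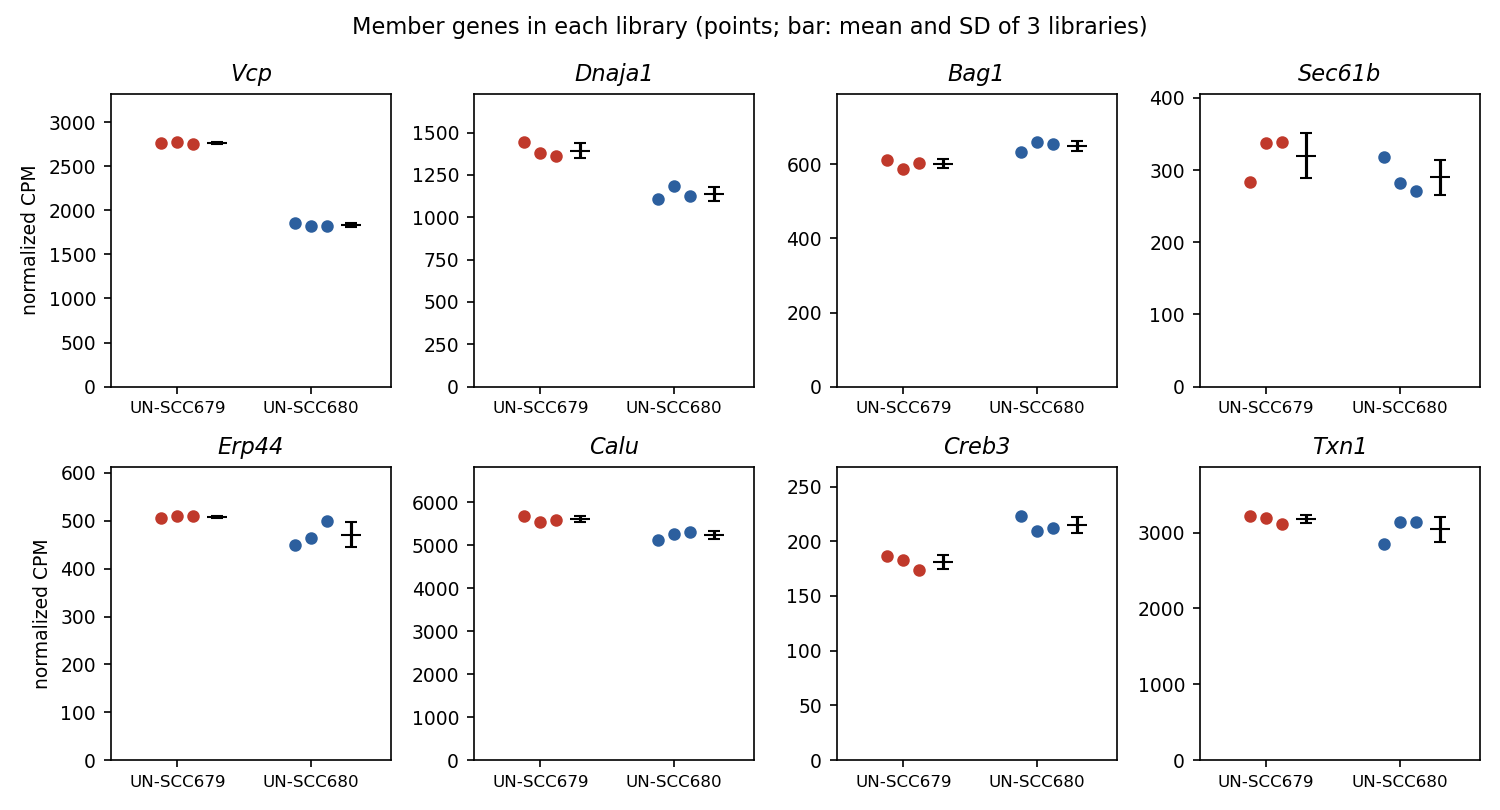
CPM (linear axis from 0, 1 panel per gene) of the 8 genes in the 3 libraries of each line; points are libraries (red for UN-SCC679, blue for UN-SCC680) and the bars beside them are means ± SD. The libraries of the lines are wholly apart for *Vcp* (2748 to 2770 CPM against 1819 to 1855 CPM) and interleave for *Sec61b* and *Txn1*.

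**Figure D2:**
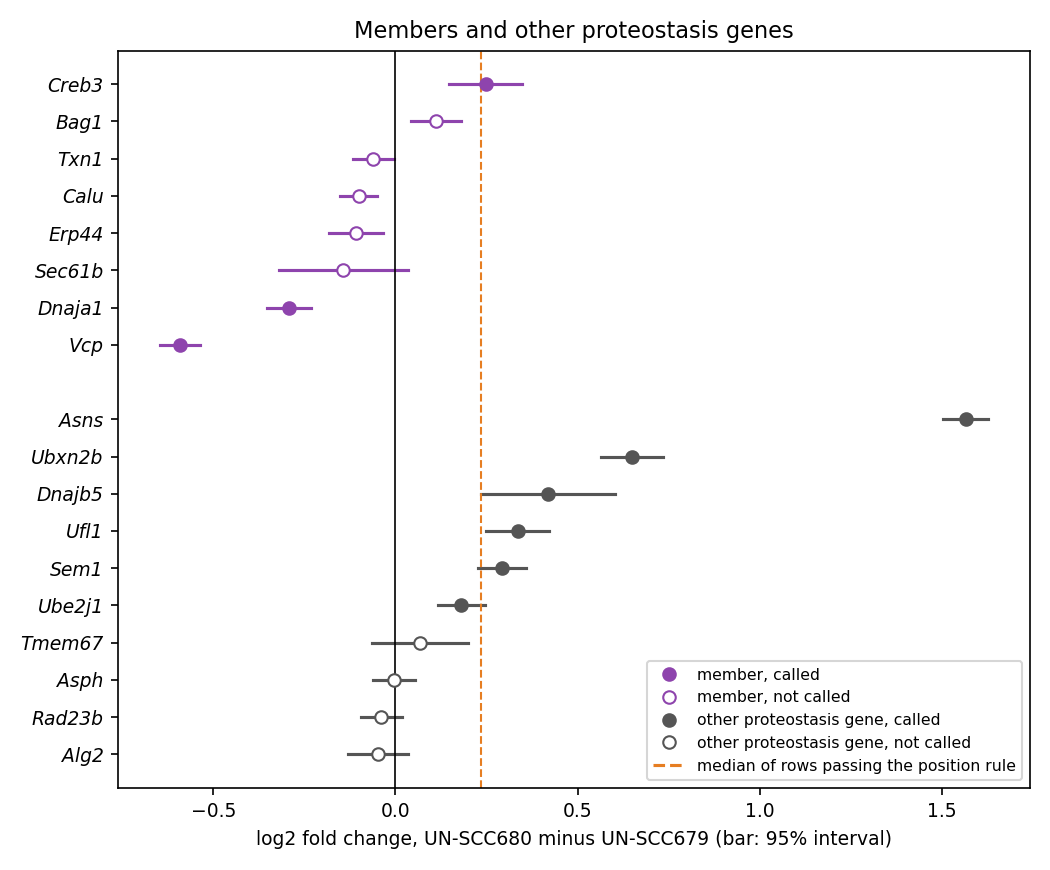
The log2 difference (UN-SCC680 minus UN-SCC679) of the 8 genes and of the 10 tested proteostasis genes around them, with 95% confidence intervals; filled points are called, open points are not, and the dashed line is the median (0.23) of rows passing the position rule. *Vcp* (-0.59) is the lowest and *Asns* (1.57) the highest value shown.

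*Vcp* encodes the hexameric ATPase that extracts ubiquitinated proteins from membranes and complexes. Values after ± are SDs over the 3 libraries of a line. The *Vcp* row (ENSMUSG00000028452.8, chromosome 4, 42979963 to 43000507, minus strand) held 2768, 2770 and 2748 CPM in the UN-SCC679 libraries and 1855, 1819 and 1825 CPM in those of UN-SCC680. The groups were far apart beside the spread within each, with means of 2762 ± 12.2 and 1833 ± 19.2 CPM (SD, n = 3). Expression fell by 33.6% in UN-SCC680 relative to UN-SCC679, a log2 difference of -0.59 (SE 0.028, 95% interval -0.65 to -0.54, edgeR adjusted p = 1.94e-58). Over 17 alternative settings, which exclude a limit on the size of the difference, it passed and lay between -0.83 and -0.56. The settings include the looser threshold of 0.05 on the same fit, which a called gene passes by construction. Of the 254 tested rows at the start of chromosome 4, 24 had a lower log2 difference than *Vcp*. Exons of other rows cover 7.26% of its exonic bases, on the opposite strand.

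Genes of proteins that work with VCP gave other values. *Ubxn2b*, a VCP cofactor of Golgi and ER assembly, held 248, 257 and 238 CPM in UN-SCC679 and 375, 405 and 388 CPM in UN-SCC680, without overlap. It was higher in UN-SCC680 by 0.65 on the log2 scale (SE 0.043, edgeR adjusted p = 7.87e-37). The ratio of *Vcp* to *Ubxn2b* counts, which no scaling of the libraries can alter, was 11.2 ± 0.376 (SD, n = 3) in UN-SCC679 and 4.72 ± 0.230 in UN-SCC680. *Rad23b*, a shuttle that carries ubiquitinated proteins to the proteasome, stood at 2263 ± 55.6 and 2203 ± 47.1 CPM and did not pass (log2 difference -0.039, edgeR adjusted p = 0.233). Against *Rad23b* the *Vcp* count ratio was 1.22 ± 0.026 in UN-SCC679 and 0.832 ± 0.027 in UN-SCC680, and the groups did not overlap.

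Of 4 other genes of ubiquitination and degradation, 3 were higher in UN-SCC680, beside 16.7% of all tested rows and 41.1% of the position-rule rows. *Ube2j1*, the ubiquitin-conjugating enzyme of ER-associated degradation, rose from 757 ± 12.4 to 859 ± 6.03 CPM (log2 difference 0.18, edgeR adjusted p = 3.42e-07). *Ufl1*, the ligase for the ubiquitin-like modifier UFM1, rose from 257 ± 8.67 to 324 ± 11.3 CPM (0.34, edgeR adjusted p = 2.55e-12). *Sem1*, a small subunit of the proteasome lid, rose from 677 ± 15.1 to 829 ± 29.6 CPM (0.29, edgeR adjusted p = 2.20e-15). *Tmem67*, a ciliary membrane protein also linked to ER-associated degradation, held 100 ± 1.07 and 105 ± 6.71 CPM and did not pass. A fit to the position-rule rows alone gave -0.056 for *Ube2j1* and -0.17 for *Tmem67*, the opposite sign, and left *Ufl1* at 0.098 and *Sem1* at 0.056, neither of which passed there.

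*Dnaja1* encodes a J-domain cochaperone that delivers clients to Hsp70. Its row (ENSMUSG00000028410.14, chromosome 4, 40722150 to 40737149, plus strand) held 1442, 1379 and 1360 CPM in UN-SCC679 and 1106, 1182 and 1127 CPM in UN-SCC680, so the lowest library of the former was above the highest of the latter. Means were 1394 ± 43.1 and 1138 ± 39.5 CPM (SD, n = 3), and the level in UN-SCC680 was lower by a change of -18.3% (log2 difference -0.29, SE 0.031, edgeR adjusted p = 5.67e-18). Alternatives ranged from -0.53 to -0.26, and all 17 kept the call. Part of the 3′ end, 7.90% of the exonic bases, is shared with other rows, mainly *Smu1* on the opposite strand.

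Other cytosolic genes of the Hsp70 cycle had higher means in UN-SCC680. *Bag1*, which encodes an exchange factor of Hsp70 (ENSMUSG00000028416.14, chromosome 4, 40936398 to 40948294, minus strand), held 612, 588 and 604 CPM in UN-SCC679 and 633, 659 and 654 CPM in UN-SCC680. The groups did not overlap, but the log2 difference of 0.11 (SE 0.035) missed the threshold (edgeR adjusted p = 0.00402) and was -0.13 in a fit to the position-rule rows alone. The ratio of *Dnaja1* to *Bag1* counts was 2.36, 2.35 and 2.25 in the UN-SCC679 libraries and 1.75, 1.79 and 1.72 in the UN-SCC680 libraries. That ratio separates the lines whatever the scaling. *Dnajb5*, another J-domain gene, was higher in UN-SCC680 at 55.9 ± 3.52 CPM against 41.6 ± 3.0 CPM (log2 difference 0.42, edgeR adjusted p = 2.95e-05), but this call held in 5 of 17 alternatives. Leaving out any 1 of the 6 libraries ended it (edgeR adjusted p of 6.55e-05 to 0.00145), as did DESeq2 (adjusted p = 0.00454), limma-voom (0.000222), library size alone (0.000125), a filter of 10 CPM (0.000131), the replicate block (9.21e-05) and a fit to the position-rule rows alone (0.0681).

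Among genes of ER entry and the ER lumen, none of the 3 members passed the threshold. *Sec61b*, the beta subunit of the translocation channel (ENSMUSG00000053317.12, chromosome 4, 47474658 to 47483242, plus strand), held 284, 337 and 338 CPM in UN-SCC679 and 318, 282 and 271 CPM in UN-SCC680. The first UN-SCC679 library lay inside the range of the other line. The log2 difference was -0.14 (SE 0.079, 95% interval -0.32 to 0.035, edgeR adjusted p = 0.152). Without that first library it was -0.22 and passed (edgeR adjusted p = 1.65e-05), so 1 library decided this call.

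*Erp44*, a thioredoxin-fold protein that returns incompletely assembled clients from the Golgi to the ER (ENSMUSG00000028343.11, chromosome 4, 48193323 to 48279558, minus strand), held 505, 509 and 510 CPM in UN-SCC679 and 450, 464 and 500 CPM in UN-SCC680. The UN-SCC679 libraries were almost equal, while those of UN-SCC680 were spread (508 ± 2.76 against 471 ± 25.6 CPM; log2 difference -0.11, SE 0.038, edgeR adjusted p = 0.00811). Without the first UN-SCC680 library the difference was -0.069. *Calu*, encoding the EF-hand calcium-binding protein calumenin (ENSMUSG00000029767.17, chromosome 6, 29348068 to 29377109, plus strand), held 5679, 5537 and 5593 CPM in UN-SCC679 and 5124, 5249 and 5302 CPM in UN-SCC680. All UN-SCC680 values lay below all UN-SCC679 values, with a change of -6.75% (log2 difference -0.10, SE 0.026, edgeR adjusted p = 0.000368). The difference passed with limma-voom, with scaling by library size alone (-0.13), with a stricter filter and in a fit to the position-rule rows alone (-0.34).

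Of the other ER genes, *Alg2*, a mannosyltransferase of N-glycan assembly, and *Asph*, a hydroxylase of the ER membrane, did not pass (log2 differences of -0.047 and -0.0037, edgeR adjusted p = 0.339 and 0.925). *Sec61b* and *Alg2* start 325 bases apart on opposite strands, and their count ratio was 0.942 ± 0.109 in UN-SCC679 and 0.882 ± 0.079 in UN-SCC680, with overlapping libraries.

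*Creb3* was the only member called higher in UN-SCC680. Its row (ENSMUSG00000028466.16, chromosome 4, 43562332 to 43567060, plus strand) held 186, 183 and 174 CPM in UN-SCC679 and 223, 209 and 212 CPM in UN-SCC680. The groups did not overlap, with means of 181 ± 6.45 and 215 ± 7.43 CPM (SD, n = 3) and a log2 difference of 0.25 (SE 0.051, edgeR adjusted p = 6.00e-06). The call held in 9 of 17 alternatives; it was lost with DESeq2, limma-voom, library size alone and a stricter filter, and the difference was 0.010 (adjusted p = 0.866) in a fit to the position-rule rows alone. It was also lost without the second (adjusted p = 0.00019) or the third (0.000483) UN-SCC679 library and without the first UN-SCC680 library (0.000149). Other rows on the opposite strand, *Tln1* and *Gba2*, share 20.8% of its exonic bases. *Tln1*, at 3521 ± 108 CPM in UN-SCC679 and 5173 ± 170 CPM in UN-SCC680, was higher by 0.56 on the log2 scale (edgeR adjusted p = 7.75e-56). The strand setting of the counting is not given in the sources used here, so the part of reads from *Tln1* in the *Creb3* count was not tested.

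*Asns*, encoding asparagine synthetase, an amino acid enzyme that the stress factor ATF4 is known to induce, had the largest difference of the list. Its 3 UN-SCC679 libraries held 659, 665 and 680 CPM and those of UN-SCC680 held 2011, 1959 and 1961 CPM. It was 2.96-fold higher in UN-SCC680 than in UN-SCC679 (log2 difference 1.57, SE 0.031, edgeR adjusted p = 9.26e-142), the highest of the 89 tested rows at the start of chromosome 6, while *Calu* on the same stretch had 39 rows below it. Of the 10 tested list genes around the members, 6 were called, all higher in UN-SCC680, and 4 were not, which is near the 56.9% called (41.1% higher) among the position-rule rows and above the 33.4% over all rows; in a fit to the position-rule rows alone 5 were called, 2 higher and 3 lower. The median of the 10 was 0.24, beside 0.23 for all tested position-rule rows.

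*Txn1* encodes cytosolic thioredoxin (ENSMUSG00000028367.6, chromosome 4, 57943373 to 57956411, minus strand). It held 3220, 3185 and 3115 CPM in UN-SCC679 and 2852, 3138 and 3140 CPM in UN-SCC680. The first UN-SCC680 library was the lowest of all, and the other two lay within the UN-SCC679 range, for a change of -4.09%. The log2 difference was -0.060 (SE 0.028, 95% interval -0.12 to -0.0049, edgeR adjusted p = 0.0555), and -0.0074 without that first library. The other thioredoxin-domain gene on the list, *Txndc8*, had 0 counts in all 6 libraries, which allows up to 3 counts per library, or 0.841 CPM in the smallest. Related copies of *Vcp*, *Dnaja1* and *Txn1* are named in RefSeq (*Vcp-rs*, *Dnaja1-ps* and *Txn-ps1*). How reads matching several places were treated is not given in the sources used here, so these 3 counts are uncertain to that extent.

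Levels of different genes were compared per kilobase of exon, using the merged length of all exons of a row. That length was 8629 bases for *Dnaja1* and 1349 for *Bag1*, and the order depends on it. In UN-SCC679 *Txn1* was highest at 3019 ± 50.7 CPM per kb, followed by *Calu* (1202 ± 15.3), *Vcp* (569 ± 2.52), *Bag1* (446 ± 9.03), *Sec61b* (252 ± 24.7), *Dnaja1* (162 ± 4.99), *Erp44* (149 ± 0.809) and *Creb3* (76.2 ± 2.72), and no neighbours in that order overlapped. In UN-SCC680 the order per kilobase changed in 2 places. *Bag1* (481 ± 10.3 CPM per kb) stood above *Vcp* (378 ± 3.96), and *Erp44* (138 ± 7.5) and *Dnaja1* (132 ± 4.57) had overlapping ranges. *Txn1* (2896 ± 158) and *Calu* (1121 ± 19.6) remained first and second, and *Creb3* (90.6 ± 3.13) last. Without division by exon length the order was the same in both lines, with *Calu* first and *Txn1* second. In both lines *Dnaja1* was then above *Bag1*, *Erp44* and *Sec61b*. *Vcp* then stood above *Bag1* in UN-SCC679 (2762 against 601 CPM) and in UN-SCC680 (1833 against 649 CPM).

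**Figure D3:**
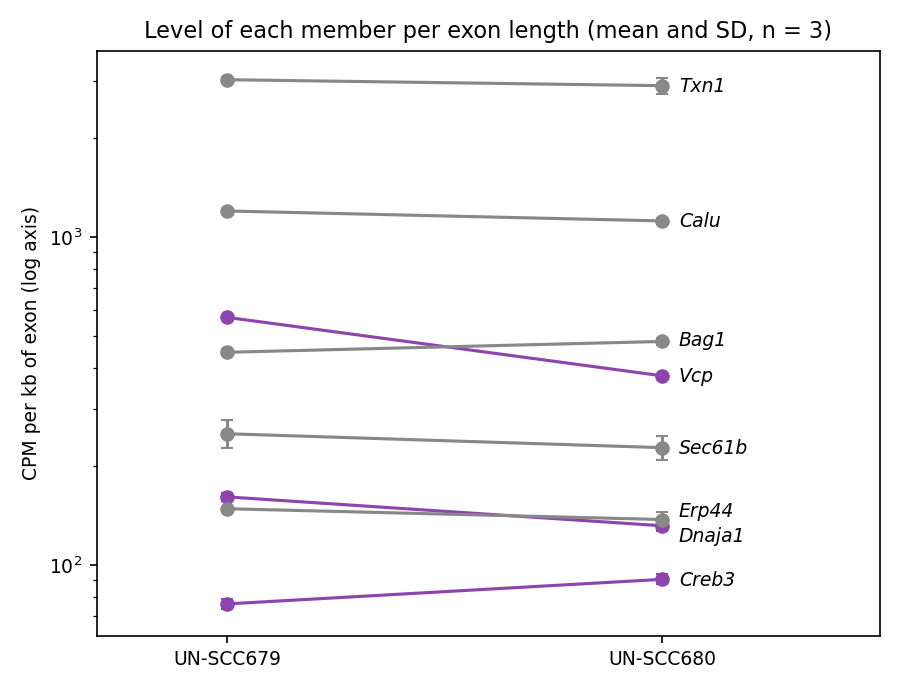
Mean level of each of the 8 genes in CPM per kilobase of exon (log axis) in both lines, with SD bars over 3 libraries, the called genes in purple. Per kilobase, *Txn1* is highest and *Creb3* lowest in both lines, and *Vcp* stands above *Bag1* in UN-SCC679 and below it in UN-SCC680. Without division by exon length, *Calu* is highest and *Vcp* is above *Bag1* in both lines.

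The nearest tested genes on each side of the members were read as well. *Fancg*, a DNA repair gene 1836 bases from *Vcp*, rose from 76.4 ± 3.30 to 151 ± 2.99 CPM (log2 difference 0.99, edgeR adjusted p = 2.60e-37) where *Vcp* fell. *Chmp5*, a gene of endosomal sorting that starts 113 bases from *Bag1* on the opposite strand, rose from 474 ± 5.15 to 647 ± 8.27 CPM (0.45, edgeR adjusted p = 9.70e-28). *Aptx*, beside *Dnaja1*, was higher in UN-SCC680 (0.35, edgeR adjusted p = 1.36e-07), a call lost with DESeq2 (adjusted p = 8.47e-05) and in a fit to the position-rule rows alone (0.11, adjusted p = 0.0962). On the sides of *Erp44*, *Invs*, a gene of cilia and left-right patterning 202 bases away, rose from 205 ± 8.75 to 259 ± 5.64 CPM (0.33, edgeR adjusted p = 1.13e-10; 0.096 without passing in the fit to the position-rule rows alone), and *Stx17*, a SNARE gene, was at -0.17 without passing (edgeR adjusted p = 7.19e-05). Beside *Calu*, *Fam71f1* was at -0.80 (edgeR adjusted p = 7.83e-05, not passing) from 13.8 ± 1.72 to 7.84 ± 0.379 CPM. *D630039A03Rik*, beside *Txn1*, was called lower (-2.57, edgeR adjusted p = 1.65e-06) at only 3.40 ± 0.788 and 0.547 ± 0.268 CPM, and the call was lost without the first or second UN-SCC679 library or the first UN-SCC680 library, with DESeq2 (adjusted p = 0.00354) and with limma-voom (0.000105). On the other side of *Txn1*, 478844 bases away, *Lpar1*, a lysophosphatidic acid receptor gene, fell from 615 ± 18.6 to 38.8 ± 3.65 CPM (-3.98, edgeR adjusted p = 5.99e-183). The remaining neighbours, *Smu1*, *Gm12397*, *Gba2*, *Nr4a3* and *Opn1sw*, did not pass.

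**Figure D4:**
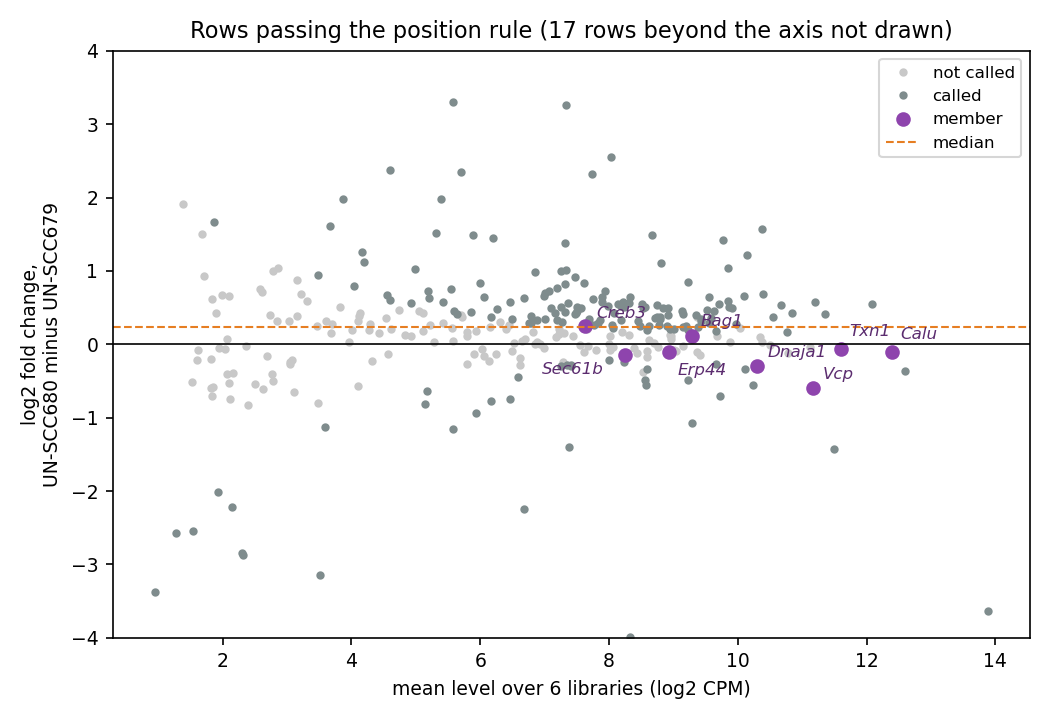
Log2 difference (UN-SCC680 minus UN-SCC679) against mean level over 6 libraries (log2 CPM) of the tested rows that passed the position rule, with the 8 genes in purple, called rows in dark grey, other rows in light grey and the median as a dashed line; 17 rows beyond 4 in size on the log2 scale are not drawn. Of the 8 genes, all but *Creb3* lie below the median of 0.23, with *Vcp* and *Dnaja1* the lowest.

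The rows whose levels over the 6 libraries were most like those of *Vcp*, by the Euclidean distance between centred log2 CPM values among 316 position-rule rows with a symbol, were *D730040F13Rik*, *Tdrd7* and *Tes*. Their distances were 0.047, 0.13 and 0.15. *D730040F13Rik* (now *Tmem245*) went from 1442 ± 21.6 to 978 ± 14.9 CPM, *Tdrd7*, a gene of RNA granules, from 455 ± 12.8 to 308 ± 12.6 CPM, and *Tes*, a focal adhesion gene, from 1048 ± 23.5 to 644 ± 6.21 CPM. With 2 lines, this likeness rests on a single contrast that *Vcp* was also described by.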

How the data were processed

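PolyA RNA of each line was prepared with a stranded kit and sequenced paired-end. Deposited by the authors was a table of raw counts, unnormalized whole numbers for each Ensembl identifier, beside its exons and their length. The submitters' processing notes name featureCounts and mm10, while the study's methods name Trimmomatic, Kallisto and DESeq2. Strand setting and treatment of multiply mapped reads are not given in the sources used here, nor is the build of the positions, so a row was read as a gene only below 58.6 Mb on chromosome 4 and 29.5 Mb on chromosome 6. All columns were matched to libraries, with 0 left unused, and 0 rows lacked an identifier.

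Counts were fitted over the whole table with edgeR 4.0.16 (R 4.3.3; TMM, filterByExpr, robust quasi-likelihood test, Benjamini-Hochberg adjustment over all tested rows), calling an adjusted p under 5e-05. The SE was derived from the F statistic. Log2 profiles used a prior count of 2. The fit was tested on simulated data. Library totals of 3568293 to 4381885 counts limit precision for low genes, and floors of 3 counts cover counting error only. Replicates differed by more than sampling noise (chi-square per degree of freedom 1.11 to 1.65). Each library was counted as 1 sample, but this excess cannot show that the libraries are independent, since technical repeats can also exceed sampling noise. Alternatives were DESeq2 1.42.0, limma 3.58.1 (voom), other scalings, filters and thresholds, a replicate block, and each library left out in turn.

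The 8 members, the lists and the tests were chosen with earlier results of these data known. Named were the members, all genes of a proteostasis list of 106 that passed the position rule (11, of which 10 were tested; a further list gene is not reported here), the nearest tested symbol-matched row on each side of each member, and the 3 rows most like the member with the largest difference. Promoters came from RefSeq (GRCm38.p6) and matched all 8 members. Scripts used Python 3.11.15, pandas 2.3.3, NumPy 2.4.6 and matplotlib 3.10.9.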

Additional observations from a re-analysis of the deposited data

How the results depend on the processing

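*Vcp* and *Dnaja1* kept their direction and call in all 17 alternatives, which exclude a limit on the size of the difference. The alternatives include the threshold of 0.05 on the same fit, which a called gene passes by construction. Over the 8 genes and those alternatives, 117 of 136 values kept direction and side of the threshold, 8 lost the call, 10 gained it and 1 changed sign; over the other named genes the counts were 404, 22, 13 and 16 of 455. *Creb3* lost its call with DESeq2 (0.27), limma-voom (0.25), library size alone (0.22), at least 10 CPM in 3 libraries (0.23) and a fit to the position-rule rows alone (0.010), and ranged from 0.22 to 0.28 when 1 library was left out. A fit to the position-rule rows alone, in which scaling, rows tested and adjustment change together and *D630039A03Rik* was not tested, gave lower values: *Bag1* became -0.13, and *Erp44* (-0.35), *Txn1* (-0.30) and *Calu* (-0.34) passed, while *Ube2j1* (-0.056), *Tmem67* (-0.17), *Smu1* (-0.13), and *Gm12397* (-0.050) changed sign. *Calu* also passed with limma-voom (-0.10), library size alone (-0.13) and the 10 CPM filter (-0.12). At an adjusted p under 0.05, *Bag1* (0.11), *Erp44* (-0.11) and *Calu* (-0.10) passed. In the fit to the position-rule rows alone, the values moved down by a similar step. *Vcp* went from -0.59 to -0.83, *Dnaja1* from -0.29 to -0.53, *Creb3* from 0.25 to 0.010 and *Asns* from 1.57 to 1.33. The changed signs and calls in that fit thus came with a shared shift and are not separate findings on single genes. The cause of these changes was not tested.

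Counts of called members were 5 with the position-rule rows, 6 at an adjusted p under 0.05 and 0 when an absolute log2 difference over 1 was also asked, where the list kept 1 gene. Over all rows, 3002 were called, against 1888 of 10294 with DESeq2, 177 of 341 among the position-rule rows alone, 5282 at an adjusted p under 0.05 and 1077 with the log2 limit. Leaving out 1 library gave 2 to 4 called members, 5 list genes and 2421 to 2762 rows. It moved *Sec61b* between -0.22 and -0.087, *Asph* between -0.017 and 0.010, *Nr4a3* between -0.27 and 0.16 and *Opn1sw* between -0.39 and 0.24. *Asph* was 0.015 and *Nr4a3* 0.0010 with DESeq2, and 0.029 and 0.0084 with a filter of at least 1 count. Replicate numbers did not pair the libraries (correlations of deviations -0.038, -0.00052 and -0.022). With the replicate block, 3 members, 5 list genes and 2734 rows were called.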
